A study of Capra hircus with 10 samples.

Results

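The cluster of miR-221 and miR-222 was represented by 4 mature miRNA among the 1804 listed for the mammary gland of lactating goats. The members were taken by name, as every miRNA called miR-221 or miR-222 after the species prefix and on either arm of the precursor. They were miR-221-3p and miR-221-5p of the precursor mir-221, and miR-222-3p and miR-222-5p of the precursor mir-222. Small RNA had been sequenced from whole mammary tissue of 10 lactating Alpine goats, 48 days (± 2) after kidding and thus at peak milk yield, with 1 library per goat, to ask which miRNA change in abundance when food is withdrawn. After a shared period of 2 weeks on a hay and concentrate diet, the 4 Control goats (L01, L04, L06 and L10) went on eating this diet freely for 48 h before slaughter. The 6 food deprived goats (FD, libraries L02, L03, L05, L07, L08, L09) received no feed over the same 48 h, and all goats had free access to water. The libraries held between 4495512 and 7506955 miRNA reads in the Control group (median 5585277.5) and between 5674119 and 9842009 in the FD group (median 7203585).

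miR-221 and miR-222 are encoded next to each other and are often made from a shared primary transcript. A precursor is cut by Dicer into a duplex of a 5p and a 3p strand, and one strand is usually retained in the Argonaute protein, where bases 2 to 8 (the seed) pair with target mRNA. In mammals the 3p strands of both are known for repressing the cell cycle inhibitor CDKN1B (p27), the receptor KIT and the oestrogen receptor ESR1. They are expressed in endothelial cells, smooth muscle and fibroblasts, and in the mammary epithelium they are more abundant in basal than in luminal cells. In the RefSeq gene table of the goat (assembly ARS1.2), MIR222 and MIR221 were neighbours on chromosome X with 0 genes between them, flanked by TRNAC-GCA and WDR44. The deposited tables were made on another assembly, CHIR_1.0, and no coordinates are given here.

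The mature sequences are shown because the 3p members share a seed and the 5p members do not. They are written 5′ to 3′ as the deposited tables spell them, with bases 2 to 8 in capitals.
miR-221-3p: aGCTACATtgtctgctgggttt
miR-222-3p: aGCTACATctggctactgggtctc
miR-221-5p: aCCTGGCAtacaatgtagatt
miR-222-5p: cTCAGTAGccagtgtagatcct
The seed GCTACAT was shared by miR-221-3p (22 nt) and miR-222-3p (24 nt), and no other of the 1804 listed miRNA carried it, also when only bases 2 to 7 were compared. These 3p miRNA were identical over the first 8 bases, and the first difference was T9C, counted from the 5′ end with the base of miR-221-3p first. Over the 22 positions that both have, 11 bases were the same without gaps. The 5p seeds, CCTGGCA and TCAGTAG, were different from each other and from the seed of every other listed miRNA, although miR-545-5p shared bases 2 to 7 with miR-222-5p. The entry for miR-222-5p carried a human name prefix and the other 3 a goat one. No other listed miRNA came within 1 mismatch of a member over the first 18 bases, the nearest having 6.

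miR-221-3p was the most abundant member. It was read 21217 times in the 10 libraries and ranked between 79 and 135 among the miRNA of a library. Normalized read counts, which are reads divided by a size factor for the depth of each library, were 804.5 in L01, 1513.8 in L04, 1054.7 in L06 and 1459.5 in L10 of the Control group. They were 1302.1 in L02, 1897.8 in L03, 3652.6 in L05, 2207.8 in L07, 3805.9 in L08 and 1098 in L09 of the FD group. L03, L05, L07 and L08 of the FD group lay above every Control library, while L02 and L09 lay within the Control range, so the groups overlapped. The mean was 1208.1 ± 338.2 in Control (SD, n = 4) and 2327.4 ± 1157.9 in FD (SD, n = 6). The log2 fold change of FD over Control was 0.93 (SE 0.36), a 1.91-fold difference, and it did not pass the edgeR quasi-likelihood test after Benjamini-Hochberg adjustment over the 490 miRNA tested (adjusted p = 0.269, unadjusted p = 0.0228).

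miR-222-3p, which shares its seed with miR-221-3p, was read 13127 times and ranked between 99 and 155 in a library. Its normalized counts in Control were 595.8 in L01, 1016.4 in L04, 804 in L06 and 833.4 in L10. In FD they were 810.1 in L02, 1336.5 in L03, 1812.2 in L05, 1284.6 in L07, 2226 in L08 and 978 in L09. The same FD libraries as for miR-221-3p, L03, L05, L07 and L08, lay above every Control library, and L02 and L09 again lay within the Control range. The mean was 812.4 ± 172.3 in Control (SD, n = 4) and 1407.9 ± 528.2 in FD (SD, n = 6). The log2 fold change was 0.78 (SE 0.28), a 1.72-fold difference, with an edgeR adjusted p of 0.237 (unadjusted p = 0.0155). DESeq2, which shrinks fold changes, gave 0.65 (SE 0.23) and put this miRNA past the threshold of 0.1 (adjusted p = 0.0932), a call that is lost when any 1 of 8 libraries is left out.

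**Figure D1:**
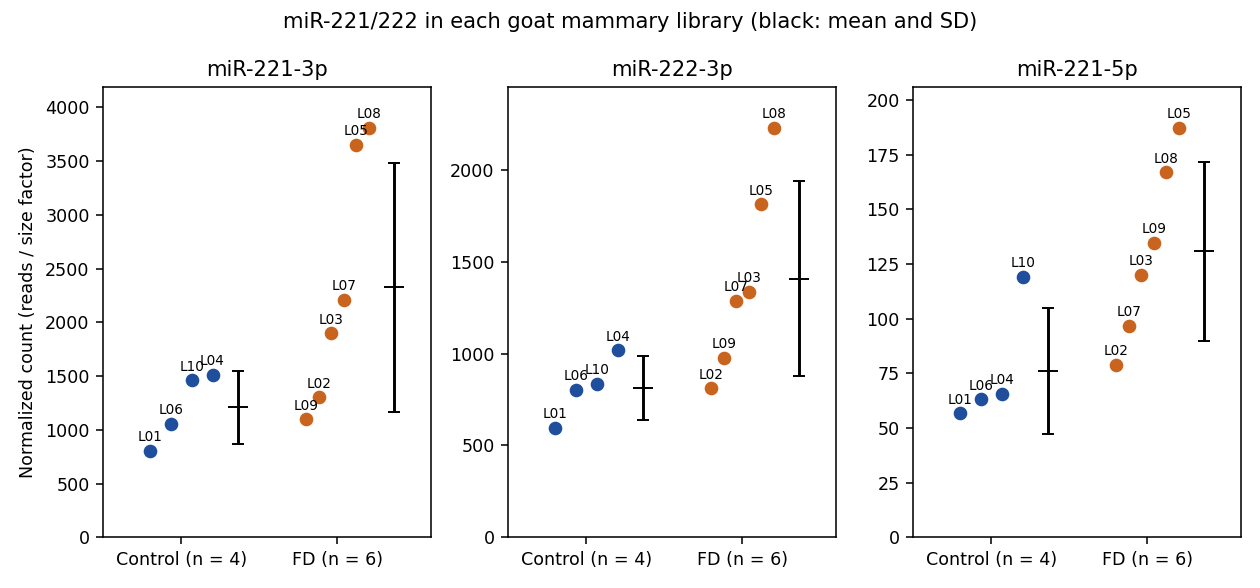
Normalized counts (reads divided by the size factor, linear axes from 0) of the 3 members tested, 1 point per library, with the mean and SD in black. L05 and L08 are the highest libraries in all 3 panels, and in each panel FD libraries overlap the Control range.

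miR-221-5p is the strand cut from the other arm of mir-221 and has a seed of its own. It was read 1195 times in all, from 41 reads in L01 (95% Poisson interval 29.4 to 55.6, counting error only) to 279 in L08. Its normalized counts in Control were 56.67 in L01, 65.73 in L04, 63.03 in L06 and 119.1 in L10. In FD they were 78.98 in L02, 119.9 in L03, 187.1 in L05, 96.65 in L07, 166.9 in L08 and 134.8 in L09. Control libraries L01, L04 and L06 lay below every FD library, whereas L10 lay among them. The mean was 76.13 ± 28.88 in Control (SD, n = 4) and 130.7 ± 41.1 in FD (SD, n = 6), and all 6 FD libraries were above the Control mean. The log2 fold change was 0.76 (SE 0.28), a 1.69-fold difference, with an edgeR adjusted p of 0.269 (unadjusted p = 0.0199).

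miR-222-5p was near the limit of detection. It had 0 reads in L01 to L06 and 2 reads in each of L07, L08, L09 and L10, which makes 8 reads in all. Every library was thus under the 3 reads that a count of 0 still allows, so no fold change or test is given, and a difference between diets was not detectable at this depth. The strand made up 0.0609% of the reads of mir-222 over all libraries (exact 95% interval 0.0263 to 0.12, counting error only). In contrast, miR-221-5p made up 5.33% of the reads of mir-221 (interval 5.04 to 5.63). In the libraries without a read of miR-222-5p, the 3p strand stood 143.7-fold (L01) to 513.3-fold (L05) above a floor of 3 reads per library. The exact 95% interval of the 5p share reached up to 0.852% in L01 and 0.239% in L05. The part that the human-named entry for miR-222-5p has in its low counts, and so in these shares and folds, was not tested.

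The 3 members that could be tested were set beside all 490 miRNA tested, which were those with a normalized count above 28 in at least 1 library. Under edgeR, 0% of the 490 miRNA passed an adjusted p of 0.1, the smallest adjusted p being 0.152 for miR-204-5p (log2 fold change 1.03, SE 0.21), and 77 had an unadjusted p under 0.05. All 3 members were among the 37 miRNA (7.55%) with an unadjusted p under 0.05 and higher counts in FD, and DESeq2 called 12 of 489 miRNA (2.45%) higher in FD, of which miR-222-3p was 1. With a library left out, that DESeq2 count ran from 1 (without L03, L06 or L08) to 26 (without L02). Every FD library lay above every Control library for 6 miRNA (1.22%), and for none of the 3 members. From the highest log2 fold change down, so that only miRNA higher in FD come first, miR-221-3p ranked 12, miR-222-3p 20 and miR-221-5p 22 among the 490, whose median log2 fold change was -0.00041. By p-value they ranked 41, 32 and 35. The next smallest p-values after that of miR-204-5p belonged to miR-494 (log2 fold change -0.67, SE 0.18) and miR-543-3p (log2 fold change -1.11, SE 0.30), both lower in FD with an edgeR adjusted p of 0.195.

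**Figure D2:**
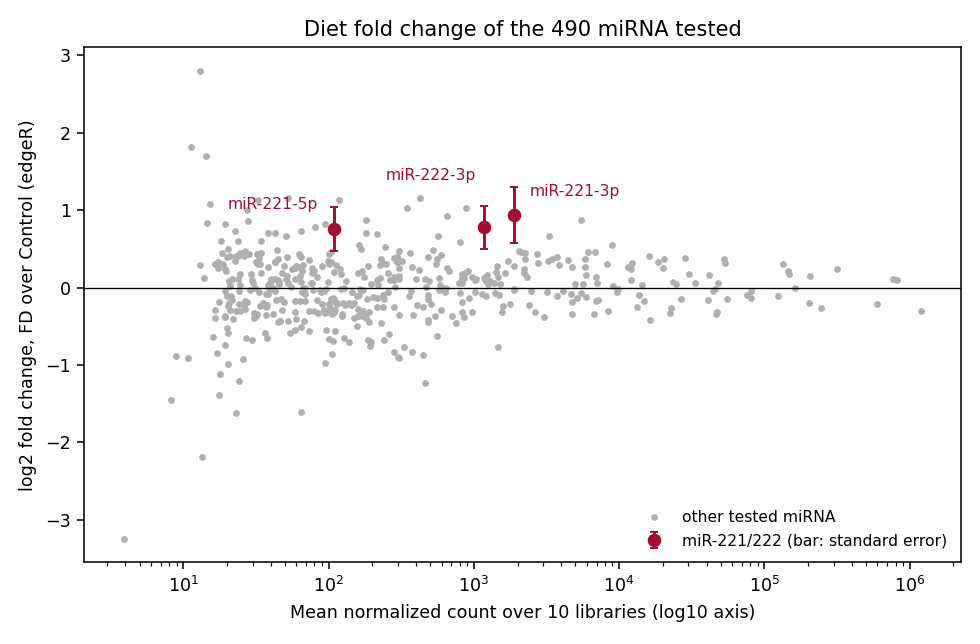
Log2 fold change of FD over Control by edgeR against the mean normalized count over 10 libraries (log10 axis) for the 490 miRNA tested, with miR-221-3p, miR-222-3p and miR-221-5p in red and their standard errors as bars. The members sit between 0.76 and 0.93 and rank 12, 20 and 22 of 490 from the highest fold change down.

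An exact two-sided permutation test of the log2 normalized counts over the 210 ways to place the 10 libraries was run for each of the 3 members. By this exact permutation test, the difference between the diet means was 0.84 for miR-221-3p (p = 0.0905), 0.73 for miR-222-3p (p = 0.0524) and 0.78 for miR-221-5p (p = 0.0381). Only miR-221-5p was under 0.05 before any adjustment, and its p rose above 0.05 when any 1 of 7 libraries was left out. Diet accounted for 33.7%, 42.3% and 45% of the variance of the log2 counts of these members, against a median of 12.5% over the 490 miRNA. The spread within a diet was also wide. The SD within diets was 0.64 for miR-221-3p on the log2 scale, larger than that of 86.9% of the miRNA tested, and it was 0.47 for both miR-222-3p and miR-221-5p, against a median of 0.34.

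Each library was left out in turn to see how far single goats moved the difference. Without L08, the library highest in both 3p miRNA, the edgeR log2 fold change was lowest, at 0.65 for miR-221-3p, 0.52 for miR-222-3p and 0.60 for miR-221-5p. The highest values were 1.07 for miR-221-3p without L09 and 1.01 for miR-221-5p without L10. All 3 members had higher counts in FD in every such fit, and none reached an edgeR adjusted p of 0.1 in any of them.

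**Figure D3:**
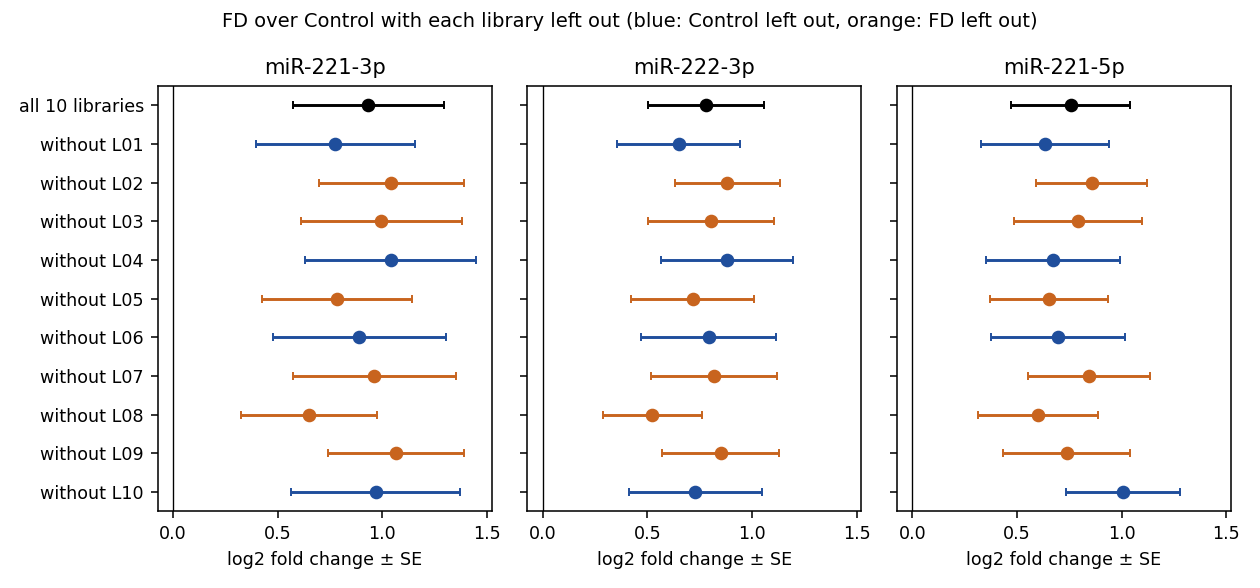
Log2 fold change of FD over Control ± standard error (edgeR) with all 10 libraries and with each library left out, for the 3 members tested. All points lie to the right of 0, and those without L08 are the lowest for each member.

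miRNA with nearly the same mean count gave a measure of what is usual at this abundance. Around miR-221-3p (1879.7 ± 1056.9 over the 10 libraries), miR-135a (1897.2 ± 662.6) and let-7d-5p (1881.1 ± 186.8) lay just above, and miR-136-3p (1769.2 ± 369.5) and miR-196b (1709.5 ± 483.8) just below. The SD values here were taken over both diets and so include any difference between them. The SD of miR-221-3p was larger than that of each of these neighbours. Within diets, on the log2 scale, it was 0.64, against 0.16 (let-7d-5p) to 0.54 (miR-135a) for them. The log2 fold changes of these neighbours ran from -0.21 (miR-136-3p) to 0.34 (miR-196b). Around miR-222-3p (1169.7 ± 509.4), the neighbours were miR-3431-3p, miR-452-5p, miR-4334-3p and miR-181a, with an SD between 93.2 and 292.1 and log2 fold changes from -0.08 to 0.12. None of these neighbours reached an edgeR adjusted p of 0.1, but neither did any other of the 490 miRNA, so this does not set them apart from the members.

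The 3p miRNA of both precursors varied together from goat to goat. Over the 10 libraries the log2 normalized counts of miR-221-3p and miR-222-3p had a Pearson r of 0.96 (permutation p = 2e-05, adjusted 6e-05 over the 3 pairs of members) and a Spearman rho of 0.952 (permutation p = 0.00011, adjusted 0.00033). Without L05 and L08, the libraries farthest from the median of miR-221-3p, r was 0.893 (exact permutation p = 0.00362). In deviations from the diet means r was 0.941 (exact permutation p = 0.00179 within diets, adjusted 0.00538), so the relation was also present within the diets. The 2 miRNA share each library and its size factor.

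**Figure D4:**
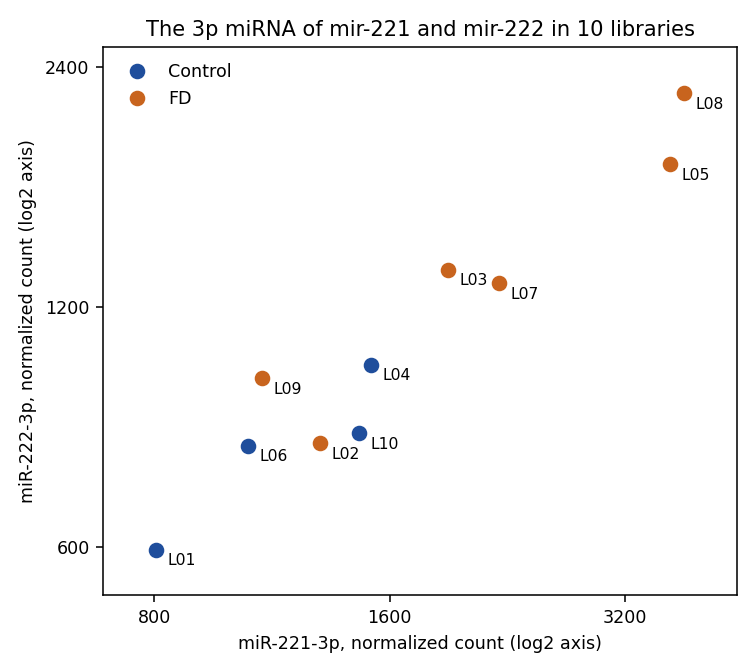
Normalized counts of miR-221-3p and miR-222-3p (both axes log2) in the 10 libraries, Control in blue and FD in orange. The points run from L01, lowest on both axes, to L08, highest on both, and L02 and L09 of the FD group lie among the Control libraries.

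The relation of miR-221-5p to the 3p miRNA rested on fewer libraries. It had r = 0.775 with miR-221-3p (permutation p = 0.00918, adjusted 0.00918, rho = 0.721, permutation p = 0.0227, adjusted 0.0227) and r = 0.802 with miR-222-3p (permutation p = 0.00575, adjusted 0.00863, rho = 0.818, permutation p = 0.00563, adjusted 0.00845). Without L05 and L08 these fell to 0.48 (exact permutation p = 0.228) and 0.585 (exact permutation p = 0.133). In deviations from the diet means they were 0.638 (exact permutation p = 0.0671) and 0.648 (exact permutation p = 0.0582).

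Ratios within a library do not depend on how the libraries were scaled. The ratio of miR-221-3p to miR-222-3p ran from 1.31 to 1.75 in Control (median 1.42) and from 1.12 (L09) to 2.02 (L05) in FD (median 1.66). Its log2 mean was 0.55 ± 0.19 in Control (SD, n = 4) and 0.65 ± 0.29 in FD (SD, n = 6), a difference of 0.10 with a 95% interval from -0.32 to 0.48 (exact permutation p = 0.567). The ratio of the 3p to the 5p strand of mir-221 ran from 12.3 to 23 in Control (median 15.5) and from 8.14 to 22.8 in FD (median 18). Its log2 mean was 4.00 ± 0.39 in Control (SD, n = 4) and 4.06 ± 0.55 in FD (SD, n = 6), a difference of 0.06 with a 95% interval from -0.72 to 0.73 (exact permutation p = 0.886). Neither ratio showed a difference between diets beyond the spread of the libraries, and the intervals leave room for differences of up to 0.48 and 0.73 on the log2 scale. The 5p strand had its lowest share of mir-221 reads in L04, a Control library (4.16%, exact interval 3.24 to 5.26), and its highest in L09, an FD library (10.9%, exact interval 9.36 to 12.7).

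The miRNA whose pattern was most like that of miR-221-3p, by Pearson r of log2 normalized counts over the 10 libraries, were miR-150 (0.986), miR-93-5p (0.953), miR-16b-5p (0.938), miR-15a-5p (0.93) and the predicted miRNA chrX_39298-5p (0.923), with miR-222-3p taking the place after miR-150. For miR-222-3p they were miR-93-5p (0.972), miR-150 (0.97), miR-130a-3p (0.967), miR-874-3p (0.958) and miR-16a-5p (0.953), with miR-221-3p in place 4. The same miRNA came first in deviations from the diet means, where miR-150 led for both (0.983 and 0.974). miR-150, known from lymphocytes, had 2481.2 normalized counts in L01, 4769.1 in L04, 3133.4 in L06 and 4053 in L10 of the Control group. In FD it had 3109.1 in L02, 5752.8 in L03, 9510.4 in L05, 6525.1 in L07, 11787.5 in L08 and 3184.5 in L09, so L08 and L05 were highest and L02 and L09 lowest among the FD libraries, as for miR-221-3p and miR-222-3p. Its log2 fold change was 0.87 (edgeR adjusted p = 0.298), that of chrX_39298-5p was 1.02 (edgeR adjusted p = 0.269) and that of miR-93-5p, a member of a cluster known from proliferating cells, was 0.37 (edgeR adjusted p = 0.323). These r values describe 10 shared libraries and were the highest of 490, so they are given without a test. miR-221-5p came only in place 50 for miR-221-3p and in place 36 for miR-222-3p.

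Since the tissue holds several cell types, lists of miRNA known to mark them were summed in each library. In bulk tissue, fewer cells of a type and less RNA per cell cannot be told apart. The epithelial list (miR-200 family, miR-205 and the miR-183 cluster, 9 of 11 measured) was abundant in every library, with miR-141 giving 54.8% of its level and no measured member at 0. Its summed level was 236413.2 ± 12730.3 in Control (SD, n = 4) and 218509.6 ± 23707.5 in FD (SD, n = 6), and the lowest libraries were L08 (183279.5) and L05 (200881.1), the ones highest in miR-221-3p and miR-222-3p. The members of this list did not run together. miR-141, miR-200a, miR-200b, miR-200c and miR-429, all of the miR-200 family, had their 2 lowest libraries in L05 and L08, whereas miR-205-5p, miR-182, miR-183 and miR-96 had both among their 3 highest. miR-205-5p, known from basal epithelial cells, had 22118 normalized counts in L05 and 21479.3 in L08, against 10690.2 in L02 and 10264.3 in L09, but it was highest in L03 (22927.8) and had 20384.3 in L07 and 20076.7 in the Control library L10. The miR-200 family gave most of the sum. The stromal list (miR-143, miR-145, miR-199 and miR-214, 8 of 10 measured, 95.8% of it miR-143-3p) summed to 756168.2 ± 115212.2 in Control (SD, n = 4) and 823815.3 ± 192729.7 in FD (SD, n = 6), with the highest level in L05 (1136233.4), while L08 (830826.9) was below the Control library L04 (928572.3) and below L03 (886861.4) and L07 (840899). Of its 8 measured members, miR-199a-5p, miR-199b-5p, miR-214-3p and miR-214-5p had both L05 and L08 among their 3 highest libraries. The strands of miR-143 and miR-145 did not. The endothelial list (both strands of miR-126, 86.8% of it miR-126-5p) summed to 133853.2 ± 12349.6 in Control (SD, n = 4) and 168383.4 ± 23641.8 in FD (SD, n = 6), with 189091.4 in L05 and 163267.6 in L08 and its highest level in L09 (197734.8), where miR-221-3p was lowest among the FD libraries.

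Correlations of the log2 levels of miR-221-3p and miR-222-3p with 5 such sums were computed after the values were seen, 10 in all. With the epithelial sum, r was -0.807 for miR-221-3p (permutation p = 0.0049, adjusted 0.0356, rho = -0.649, adjusted 0.166) and -0.788 for miR-222-3p (permutation p = 0.00711, adjusted 0.0356, rho = -0.552, adjusted 0.261). Without L05 and L08, the libraries farthest from the median of the epithelial sum, r was -0.366 and -0.275, so the relation rested on those libraries, whose removal also narrows the range of the sum. With the stromal sum, r was 0.717 (permutation p = 0.0198, adjusted 0.0594) and 0.701 (permutation p = 0.0238, adjusted 0.0594), and rho was 0.685 for both (adjusted 0.166). Without L02 and L05, the libraries farthest from the median of the stromal sum, r was 0.637 and 0.609. The r with the endothelial sum was 0.316 for miR-221-3p and 0.382 for miR-222-3p, with the leukocyte sum, most of it miR-146b-5p, -0.113 and -0.042, although miR-150 of the same list had 0.986 and 0.97, and with the erythroid sum 0.303 and 0.236. In deviations from the diet means, the endothelial values turned to -0.150 and -0.129 and the erythroid ones to -0.210 and -0.450, while the epithelial ones were -0.755 and -0.737 and the stromal ones 0.761 and 0.777. For these epithelial and stromal values the permutation p within diets was 0.0998 after adjustment over the 10 correlations, so none was under 0.05. The part of cell composition in the diet difference of these miRNA was not tested.

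**Figure D5:**
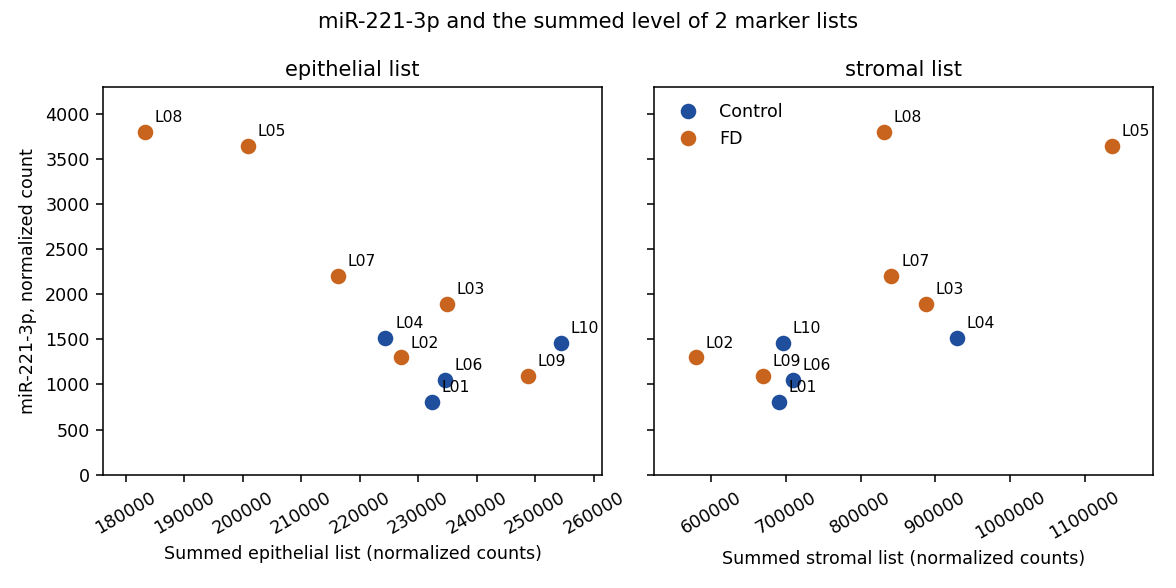
miR-221-3p (normalized count, axis from 0) against the summed normalized counts of the epithelial list on the left and the stromal list on the right, 1 point per library. L08 and L05 stand at the low end of the epithelial sum, which is mostly miR-200 family, and at the top of miR-221-3p, and L05 has the highest stromal sum.

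No member of the cell type lists reached an edgeR adjusted p of 0.1, and neither did any other of the 490 miRNA. DESeq2 called miR-126-3p (adjusted p = 0.0633), miR-223-3p (adjusted p = 0.0633) and miR-223-5p (adjusted p = 0.0907), all higher in FD. They were among the 2.45% of miRNA that DESeq2 called so and that fell to 1 miRNA without L03, L06 or L08. The counts of each list are set beside the 490 miRNA, of which 245 (50%) had a log2 fold change above 0. In the endothelial list both strands were above 0, with a median of 0.34 (miR-126-3p 0.37, SE 0.11, edgeR adjusted p = 0.195, and miR-126-5p 0.31, SE 0.13, edgeR adjusted p = 0.296). In the epithelial list 4 of 9 were above 0, with a median of -0.11 (miR-141 -0.11 and miR-200b -0.34, edgeR adjusted p = 0.638 and 0.305), and in the stromal list 6 of 8, with a median of 0.28 (miR-143-3p 0.11 and miR-145-5p -0.15, edgeR adjusted p = 0.739 and 0.807). In the leukocyte list (6 of 8 measured, 77.7% of it miR-146b-5p) 5 of 6 were above 0, with a median of 0.77. Its summed level was 56867.9 ± 14564.2 in Control (SD, n = 4) and 74863.7 ± 32845.5 in FD (SD, n = 6). miR-223-3p, known from neutrophils and monocytes, had a mean of 244.8 ± 108.7 in Control and 552.1 ± 235.7 in FD and a log2 fold change of 1.15 (SE 0.34, edgeR adjusted p = 0.195), but it had 329.5 normalized counts in L05 and 460.6 in L08, below its highest libraries L03 (876.9) and L09 (823). In contrast, miR-150 and miR-146a of this list had their 2 highest libraries in L05 and L08, with 4845.8 and 4909.7 normalized counts of miR-146a, whose log2 fold change was 0.67 (SE 0.26, edgeR adjusted p = 0.269). The most abundant members were miR-146b-5p, with a log2 fold change of 0.37 (SE 0.39, edgeR adjusted p = 0.624), and miR-155-5p, known from activated lymphocytes and macrophages and the member below 0, with -0.12 (SE 0.21, edgeR adjusted p = 0.781). In the erythroid list (3 of 5 measured, 97.8% of it miR-451-5p) 3 of 3 were above 0, with a median of 0.33, and the sum was 5075.3 ± 1034 in Control (SD, n = 4) and 7004.3 ± 1018.3 in FD (SD, n = 6). In this list miR-451-5p had a log2 fold change of 0.46 and miR-144-3p one of 0.33. At an unadjusted edgeR p under 0.05, 4 of 6 leukocyte, 2 of 2 endothelial and 1 of 3 erythroid members were higher in FD. Of the 490 miRNA, 7.55% were. No stromal or epithelial member was higher at this p, and 2 of 9 epithelial members were lower. In either direction, 77 of the 490 miRNA were under this p, 37 of them higher in FD and the rest lower.

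Lists of miRNA with roles near those of miR-221 and miR-222 gave the wider setting. Of 14 miRNA known for acting in blood vessel growth, 11 were tested, 8 with a log2 fold change above 0 and 3 below, with a median of 0.24. Of these, 3 were higher in FD at an unadjusted edgeR p under 0.05, where 7.55% of the 490 miRNA were. They were miR-130a-3p and both strands of miR-126, which are also the endothelial list. The most abundant members of this blood vessel list were miR-27b-3p (log2 fold change 0.21, SE 0.13, edgeR adjusted p = 0.453) and miR-126-5p. Of 13 miRNA of the clusters known for promoting the cell cycle, such as the miR-17 family, 11 were tested, 7 with a log2 fold change above 0 and 4 below, with a median of 0.12 and 0 at an unadjusted edgeR p under 0.05, against 77 of the 490 miRNA. Its most abundant members lay on both sides of 0, with a log2 fold change of -0.33 for miR-19b-3p (SE 0.19, edgeR adjusted p = 0.421) and 0.25 for miR-25-3p (SE 0.11, edgeR adjusted p = 0.313). The log2 fold changes of miR-221-3p (0.93), miR-222-3p (0.78) and miR-221-5p (0.76) were above the median of both lists.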

How the data were processed

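The deposited counts are whole numbers and give the reads of each mature miRNA in a library. The authors trimmed adapters with Cutadapt, kept reads of 17 to 28 nt, aligned these with the goat assembly CHIR_1.0 and counted them with miRDeep2 on known and predicted precursors. The submitters' processing notes also name CASAVA 1.8.2. No molecular identifiers are described, so reads copied in amplification were counted, and levels of different miRNA also carry differences in adapter ligation. The authors' table of predicted precursors and the normalized columns were not used here.

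Normalized counts are counts divided by DESeq2 size factors computed over all 1804 miRNA. Diets were compared by the edgeR quasi-likelihood test (edgeR 4.0.16, TMM, no covariates, two-sided) on miRNA with a highest normalized count above 28, and p-values were adjusted by Benjamini-Hochberg (threshold 0.1). The standard error is the log2 fold change divided by the square root of F. Alternatives were DESeq2 1.42.0, limma-voom (limma 3.58.1), other scalings and filters, and each library left out. Exact permutation tests used log2(normalized count + 1) and a threshold of 0.05, and ratios a pseudocount of 0.5. Correlations of 10 libraries used 100000 permutations. The fits were tested on simulated data. Library numbers do not pair goats. A chi-square check of the pairs of libraries within a diet (6 in Control, 15 in FD) found no library deposited more than once in the same diet. Pairs of a Control and an FD library were not compared in this check.

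The miRNA named were the members, those with the same seed, the 5 most alike in pattern, the 2 nearest in level on each side, the 2 most abundant of each list and the 3 with the smallest p. miR-223-3p, miR-223-5p, miR-146a, miR-205-5p, the other members named by their levels in L05 and L08, and the correlations with the summed lists were picked once the values had been seen. The members and lists were chosen with earlier results of these data known. List names without a match in the tables were not analysed here.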

Additional observations from a re-analysis of the deposited data

Results flagged for a closer look

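Of the 10 sets of values of a diet that were examined for a library far from the rest, 2 held one, where chance gives about 1 in 20. miR-221-5p in the Control library L10 had 119.1 normalized counts, while the other Control libraries had 56.67 to 65.73. The log2 ratio of the 3p to the 5p strand of mir-221 in the FD library L09 was 3.02, while the other FD libraries had 3.98 to 4.51.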

How the results depend on the processing

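The log2 fold changes of the 3 members tested were above 0 in 60 of 60 alternatives, and 2 of these had an adjusted p under 0.1. Both were miR-222-3p by DESeq2, with 0.65 (adjusted p = 0.0932) and, without the Cook's distance limit, 0.65 (adjusted p = 0.0934), an alternative chosen after seeing the data. With a library left out, edgeR gave 0.65 to 1.07 for miR-221-3p (adjusted p 0.184 to 0.493), 0.52 to 0.88 for miR-222-3p (0.16 to 0.477) and 0.60 to 1.01 for miR-221-5p (0.167 to 0.484). With DESeq2 and a library left out, also chosen after seeing the data, the log2 fold change of miR-222-3p ran from 0.50 to 0.79. It kept its call in 2 of 10 fits (without L02 or L09). The other members were called in 2 fits each (miR-221-3p without L02 or L09, miR-221-5p without L02 or L10). These fits also called the most miRNA in either direction, 43 of 486 without L02, 41 of 481 without L09 and 32 of 481 without L10. The other DESeq2 fits with a library left out called 1 to 9. The number of miRNA called was 0 by edgeR, with 77 at an unadjusted p under 0.05. It was 26 by DESeq2 with or without the Cook's distance limit, 0 by limma-voom (60 at an unadjusted p under 0.05), 5 without a filter, and 0 to 1 with a library left out, the 1 being without L02, by edgeR. By DESeq2 it ran from 1 (without L03, L06 or L08) to 43 (without L02) with a library left out.

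With a library left out, the permutation tests gave differences of 0.66 to 1.02 for miR-221-3p (exact p 0.0476 to 0.214), 0.59 to 0.88 for miR-222-3p (exact p 0.0238 to 0.131) and 0.66 to 1.01 for miR-221-5p (exact p 0.0238 to 0.0833). The difference in the strand ratio of mir-221 ran from -0.070 to 0.27, changing sign in 4 of 10 cases, that in the ratio of miR-221-3p to miR-222-3p from 0.03 to 0.20, and r of this pair from 0.941 to 0.978. The causes were not tested. No paired analysis was possible because the library numbers mark single goats and no number is shared between diets.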
